A study of Arabidopsis thaliana with 22 samples.

Results

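The wild-type roots of a study of the Arabidopsis thaliana transcription factor gene MYB67 were sequenced in 2 separate experiments, and those of experiment 2 are compared here with those of experiment 1. The libraries were chosen by their labels alone, as those of genotype WT: 5 libraries of experiment 2 and 6 of experiment 1, which make 11 of the 22 libraries in the study. The other 11 are labelled as a myb67 mutant in the same background, 5 in experiment 2 and 6 in experiment 1. WT experiment 2 and WT experiment 1 carry the same labels in every other respect: accession Col-0, age 14 days, no treatment, and WT seeds sown on the same agarose plates as seeds of the mutant myb67-1. Each library is bulk mRNA sequencing of the uppermost 1.5 cm of the primary root, counted from the base of the hypocotyl, with lateral roots cut away and about 40 seedlings pooled. The sources used here give neither the hour of harvest nor the date of either experiment.

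The upper primary root is the part of the root where secondary growth sets in. There the cambium, a ring of dividing cells, adds xylem inwards and phloem outwards, and the pericycle gives rise to a periderm whose outer cells, the phellem, are suberized. As the periderm forms, the endodermis with its lignified Casparian strip, the cortex and the epidermis with its root hairs are lost from the surface. The circadian clock runs in roots as well as in shoots, through genes that peak in the morning, such as CCA1 and LHY, and genes that peak later in the day, such as TOC1, which repress one another.

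WT roots of experiment 2 and experiment 1 differed in more than a label, so no difference can be assigned to the plants alone. Experiment, sequencing depth and counting method cannot be told apart: the libraries of experiment 2 held 25168239 to 29430087 counts, all whole numbers, and those of experiment 1 held 3705515 to 17727642, in steps of 0.5. WT replicate 1 of experiment 1 stood apart, with 3705515 counts of which 27.8% were ribosomal RNA, against at most 0.302% in the rest of WT experiment 1. Ribosomal RNA took 0.675% to 1.75% of the counts in WT experiment 2. The first principal component of log2 CPM held 77.2% of the variance and parted the sets, with scores of 56.3 to 100.1 in WT experiment 2 and of -78.0 to -54.1 in WT experiment 1. Replicates 1 and 3 lay farthest out within experiment 2, at 96.3 and 100.1. With 3705300 counts drawn from each library, 24431 to 26159 genes were detected per library of experiment 2, against 21571 to 22382 in experiment 1. No replicate pair within a set was a duplicate, since the chi-square per gene was at least 7.03 in experiment 2 and 3.59 in experiment 1.

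Most tested genes differed between the WT sets. Of 21100 genes tested with edgeR's quasi-likelihood F test, 14609 (69.2%) passed an adjusted p of 0.05 (Benjamini and Hochberg's method), 7284 of them higher (34.5%) and 7325 lower (34.7%) in experiment 2. With a change of at least 2-fold as a second condition, 2124 genes (10.1%) were higher and 2372 (11.2%) lower. Every library of experiment 2 lay above every library of experiment 1 for 5223 genes (24.8%) and below for 5552 (26.3%). The median log2 fold change of all genes was 0.02. These shares are the background against which the counts of the gene lists are to be read, and the p-values measure the spread between these libraries only. Levels are TMM-scaled CPM, that is, counts relative to the size of the library, so they compare a gene between libraries and not one gene with another, and folds are experiment 2 over experiment 1 unless stated. With every library thinned to 3705300 counts, the root hair median was -3.31, the cambium median 1.06 and the endodermis median -0.96. In bulk RNA, fewer cells of a type and less RNA per cell cannot be told apart.

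**Figure D1:**
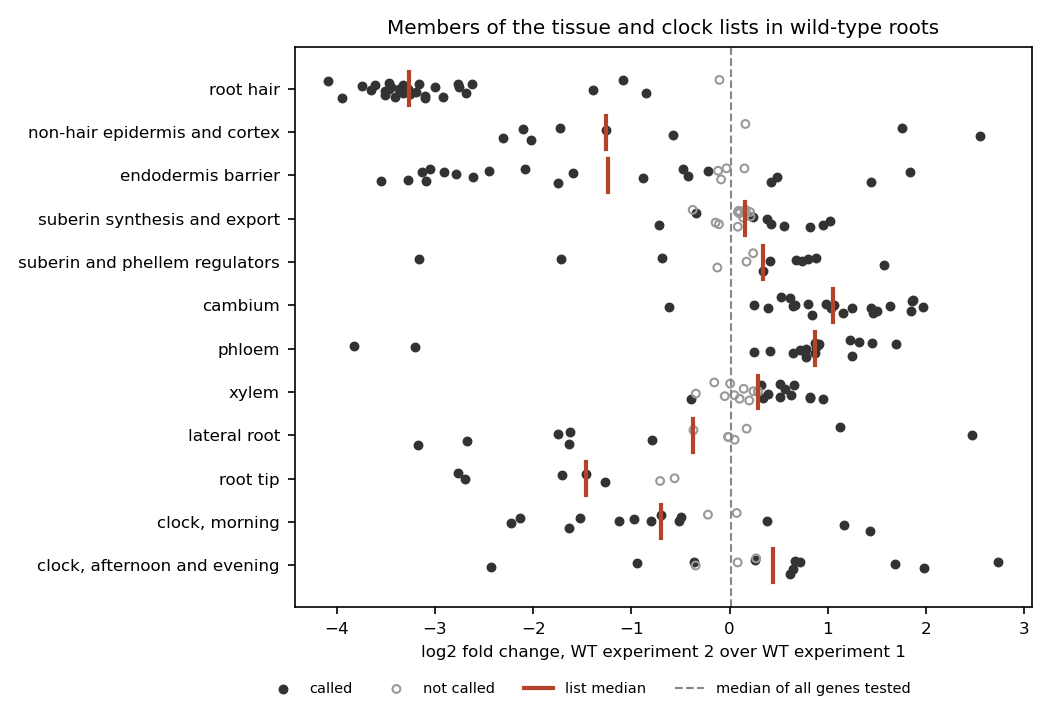
Log2 fold change, WT experiment 2 over WT experiment 1, of each tested member of the tissue and clock lists, 1 point per gene. Root hair genes all lie below 0 with a median of -3.27, cambium genes almost all above 0 with a median of 1.05, and endodermis genes spread from -3.54 to 1.84.

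Root hair genes were lower in WT roots of experiment 2. All 30 genes of this list were tested, and 29 fell while 0 rose, 28 of them by at least 2-fold, where 34.7% of all tested genes fell and 11.2% fell by at least 2-fold. Their median log2 fold change was -3.27, against 0.02 for all genes. Every library of experiment 2 lay below every library of experiment 1 for 29 of the 30, against 26.3% of all genes.

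Both the regulators of hair fate and growth and the wall genes of the hair fell. RHD6, the basic helix-loop-helix factor that starts hair formation, stood at 2.06, 2.96, 0.785, 3.83 and 3.05 CPM in the libraries of WT experiment 2, against a lowest of 15.0, a median of 19.4 and a highest of 21.6 CPM in WT experiment 1. The sets did not overlap, with a 7.55-fold fall (log2 -2.92, SE 0.26, edgeR adjusted p 5.47e-07). RSL4, which sets how long a hair grows, fell (log2 -3.00, SE 0.27), and RSL2, a related factor, fell 9.69-fold (log2 -3.28, SE 0.40). RSL1, which acts beside RHD6, fell less, 2.63-fold.

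EXPA7, an expansin that loosens the wall of the growing hair, had 1.77, 4.69, 0.512, 4.72 and 3.58 CPM in WT experiment 2, against 27.1 to 37.4 CPM with a median of 33.3 in WT experiment 1. This was a 10.6-fold fall (log2 -3.41, SE 0.35, edgeR adjusted p 1.77e-06). RHS18, a peroxidase gene named for its root hair expression, had the strongest fall of the list (log2 -4.09, SE 0.31), with 0.410 to 3.43 CPM in experiment 2 against 31.0 to 45.7 in experiment 1. COW1, a phosphatidylinositol transfer protein needed for hair tip growth, fell 9.15-fold, and XTH13, a xyloglucan-modifying enzyme, fell 15.4-fold. XTH12, XTH13 and XTH14 are close paralogs whose reads the counting may have split between them. The annotated spans of EXPA7, EXPA18, RHS19, AT4G26010 and AT1G30870 overlap another gene, and without these 5 the median of the other 25 was -3.13, with 24 lower.

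RHD2, CSLD3 and SCN1 differed least among the root hair genes. RHD2, the NADPH oxidase of the hair tip, had 42.9 to 60.7 CPM in WT experiment 2 and 97.8 to 117 CPM in WT experiment 1, a 2.12-fold fall. CSLD3, a cellulose synthase-like protein, had 129.7 to 149.5 CPM in experiment 2 and 235 to 269 in experiment 1 (log2 -0.85, SE 0.05). SCN1 had 81.0 to 95.8 CPM in experiment 2 and 88.7 to 98.1 in experiment 1 (log2 -0.10, SE 0.05, edgeR adjusted p 0.109), so the sets overlapped and no change was called.

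The libraries of experiment 2 also differed among themselves in root hair genes. The mean log2 CPM of the list was 1.56, 2.27, 0.60, 2.44 and 2.08 in replicates 1 to 5 of WT experiment 2, against 4.43 to 5.23 in WT experiment 1. Replicates 1 and 3 were the lowest in this mean, and EXPA7, RHD6, RSL2 and COW1 all stood lower in both than in the other 3. Not every member followed: PRP1, EXT12 and RHD2 stood highest in replicate 1 among the libraries of experiment 2. Without replicates 1 and 3 the median was still -2.79, with 30 of 30 genes lower.

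**Figure D2:**
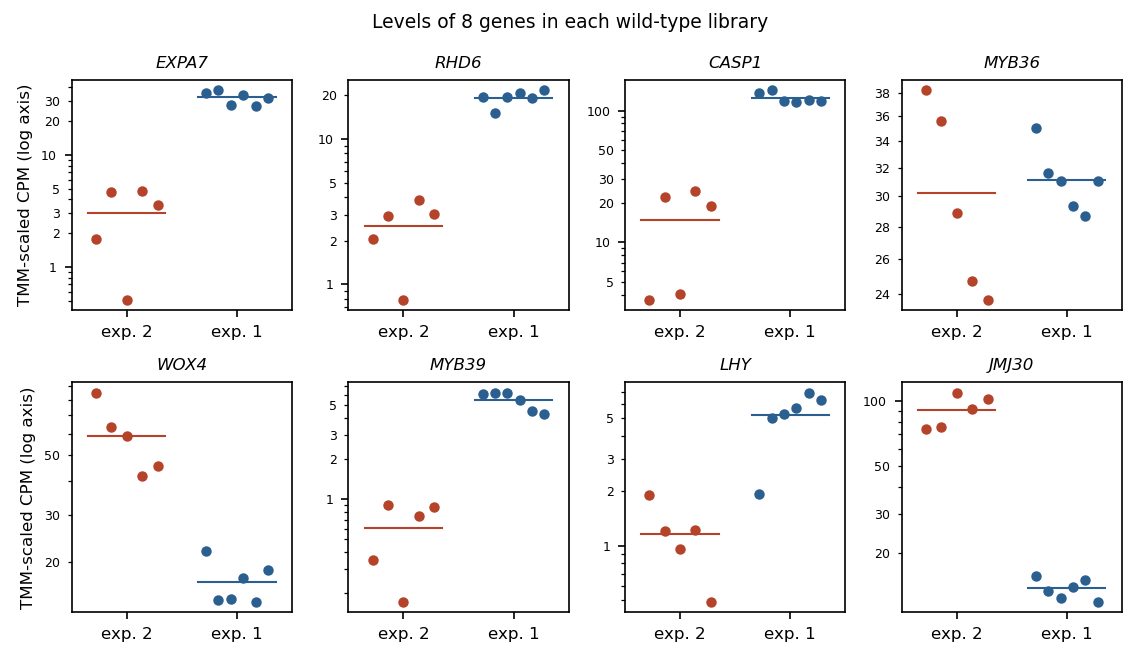
CPM on a log axis of EXPA7 and RHD6 (root hair), CASP1 and MYB36 (endodermis), WOX4 (cambium), MYB39 (suberin regulator), LHY (morning clock) and JMJ30 (evening clock) in WT experiment 2 and WT experiment 1, 1 point per library with a line at the mean. EXPA7, RHD6, CASP1, MYB39 and LHY lie lower in all 5 libraries of experiment 2, WOX4 and JMJ30 lie higher in all 5, and MYB36 overlaps.

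Other markers of the outer tissues were more divided. Of 9 genes of the non-hair epidermis and cortex list, all tested, 6 fell and 2 rose, with a median log2 fold change of -1.26. Across all tested genes 34.7% fell and 34.5% rose. The 2 that rose were listed for cortex. The falls were of epidermal genes except for AT1G62510, also listed for cortex (log2 -1.72). The epidermal patterning factors WER and GL3, which decide between hair and non-hair fate, fell by 2.02 and 2.31 on the log2 scale, and CPC, which acts against WER, had 1.06 to 2.97 CPM in WT experiment 2 and 5.34 to 10.9 CPM in WT experiment 1. Of the cortex genes, AT1G62500 rose, with 26.7 to 39.5 CPM in WT experiment 2 and 4.26 to 9.92 CPM in WT experiment 1 (log2 2.55, SE 0.18). AT1G09750, the other cortex gene that rose, was higher by 1.76 on the log2 scale. GL2, which acts below WER in non-hair cells, fell by 0.58 on the log2 scale.

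Genes of the endodermal barrier split into a group that fell steeply and a group that did not. All 24 were tested. Of these, 16 fell and 4 rose, 12 falling and 2 rising by at least 2-fold, and the median log2 fold change was -1.23. In 14 genes the libraries of experiment 2 all lay below those of experiment 1, in 3 they all lay above, and in 7 the sets overlapped. For all tested genes the shares were 34.7% fallen and 34.5% risen, with 11.2% and 10.1% by at least 2-fold. The libraries of experiment 2 all lay below for 26.3% of all genes and above for 24.8%. The median depended on which members were counted: it was -0.66 with a mean of at least 5 CPM required (22 genes) and -0.38 with genes of overlapping span left out (19 genes, 10 lower and 4 higher).

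The genes that build the Casparian strip membrane domain were among those that fell steeply. CASP1, a scaffold protein of that domain, had 3.66, 22.2, 4.06, 24.6 and 19.0 CPM in WT experiment 2, against a lowest of 117, a median of 119.7 and a highest of 142 CPM in WT experiment 1. The fall was 8.54-fold (log2 -3.09, SE 0.43, edgeR adjusted p 2.49e-05). Replicates 1 and 3 of experiment 2 were the lowest here, as in the mean of the root hair list. CASP2 and CASP4 fell by 3.05 and 2.90 on the log2 scale, and CASP5 by 2.08.

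PER64, the peroxidase that polymerizes lignin in the strip, had 7.27 to 17.7 CPM in WT experiment 2 and 71.0 to 106 CPM in WT experiment 1, a 6.09-fold fall. The locus AT4G11290 fell 11.7-fold, the uclacyanin UCC1 9.67-fold and the locus AT5G66390 6.90-fold. ESB1, a dirigent-domain protein needed for an unbroken strip, fell 5.48-fold, but its level in experiment 1 spread from 22.7 to 259 CPM, the highest being replicate 1. Without that library ESB1 fell by 1.68 on the log2 scale, against 2.45 with it. CASP1, CASP5, PER64, ESB1 and GSO1 each overlap another annotated gene.

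MYB36, the transcription factor that switches on the CASP genes, had 38.2, 35.6, 28.9, 24.7 and 23.7 CPM in WT experiment 2 and 28.7 to 35.1 CPM, with a median of 31.1, in WT experiment 1. The sets overlapped (log2 -0.03, SE 0.12, edgeR adjusted p 0.83), and a change was not called in MYB36 while its known targets fell. SCR, which specifies the endodermis, fell 3.35-fold (log2 -1.74, SE 0.25), and its sets did not overlap. GSO1, the receptor kinase that senses a leaky strip, fell 1.84-fold, and RBOHF, the oxidase that feeds lignin polymerization, fell 1.34-fold.

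LAC3, a laccase, was the endodermis list's exception at high level, with 1017, 829.8, 902, 679.7 and 699 CPM in WT experiment 2, against 257 to 375 CPM with a median of 294 in WT experiment 1. It rose 2.71-fold (log2 1.44, SE 0.12, edgeR adjusted p 3.26e-07). AT2G16385 rose 3.58-fold, with 13.1 to 18.7 CPM in experiment 2 against 2.78 to 5.43 in experiment 1. AT5G50150 rose 1.34-fold and AT1G44970 1.39-fold. SCL3, a GRAS-family factor, fell by 0.22 on the log2 scale (SE 0.09, edgeR adjusted p 0.0374), a call that was lost in 15 of 28 other settings.

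**Figure D3:**
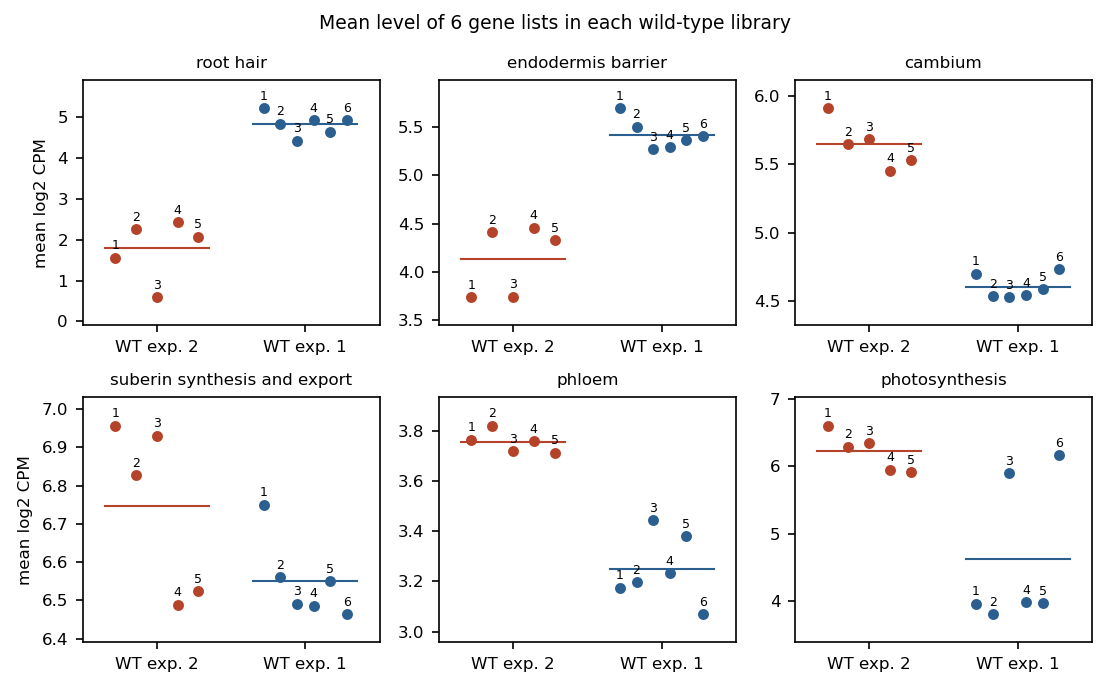
Mean log2 CPM over the tested members of 6 lists in each WT library, numbered by replicate, with experiment 2 left of experiment 1 and a line at the mean. Root hair points span 0.60 to 2.44 for experiment 2 and 4.43 to 5.23 for experiment 1, and cambium points span 5.45 to 5.91 for experiment 2 and 4.53 to 4.73 for experiment 1.

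Cambium genes were higher in WT roots of experiment 2. All 22 were tested, and 21 rose while 1 fell, 12 of the rises by at least 2-fold. Across all tested genes 34.5% rose and 10.1% rose by at least 2-fold. The median log2 fold change was 1.05, and in 17 genes all libraries of experiment 2 lay above all libraries of experiment 1, as they did for 24.8% of all genes.

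WOX4, a homeobox factor that keeps cambium cells dividing, had 85.0, 63.4, 58.6, 41.7 and 45.4 CPM in WT experiment 2, against 14.3 to 22.1 CPM with a mean of 16.9 in WT experiment 1. It rose 3.59-fold (log2 1.84, SE 0.18, edgeR adjusted p 8.65e-07), with no overlap. PXY, the receptor kinase that acts upstream of WOX4, had 173 to 232 CPM in experiment 2 and 64.6 to 87.7 in experiment 1, a 2.75-fold rise (log2 1.46, SE 0.10). ANT, an AP2-type factor of cambial cells, rose 3.09-fold, with 99.0 to 178 CPM in experiment 2 against 35.6 to 49.0 in experiment 1.

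KNAT1, a homeobox factor of cambium and xylem fibre formation, rose 3.93-fold, the most of the list, with 72.4 to 116 CPM in WT experiment 2 against 15.2 to 32.8 in WT experiment 1. CYCD3;1, a D-type cyclin of cambial divisions, rose 3.65-fold, with 122 to 180.0 CPM in experiment 2 against 37.3 to 43.6 in experiment 1. LBD11 rose 3.62-fold and LBD4, which marks the edge between cambium and phloem, rose 1.78-fold.

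The class III homeodomain factors, which act in vascular patterning, also rose: HB8 by 1.07, PHB by 1.15, PHV by 0.80, CNA by 0.65 and REV by 0.53 on the log2 scale. MP, the auxin response factor upstream of HB8, rose 1.98-fold. AIL6, an AP2-type factor also active in young lateral root primordia, was the 1 gene that fell, with 28.4 to 42.4 CPM in WT experiment 2 against 42.0 to 63.2 in WT experiment 1 (log2 -0.62, SE 0.12). WOX14 rose by 0.25 on the log2 scale (SE 0.10, edgeR adjusted p 0.0444), a call lost in 16 of 28 other settings. CYCD3;1, RUL1, AIL6, REV and MP overlap another annotated gene.

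The vascular tissues next to the cambium were measured by 19 phloem and 25 xylem genes. All 19 phloem genes were tested, of which 17 rose and 2 fell, with a median log2 fold change of 0.87. Of all tested genes, 34.5% rose and 34.7% fell. SEOB, a structural protein of sieve elements, had 223, 194, 222, 187 and 185 CPM in WT experiment 2, against 59.8 to 70.2 CPM with a median of 62.4 in WT experiment 1, a 3.22-fold rise (log2 1.69, SE 0.07). APL, the factor that sets phloem identity, rose 2.34-fold, and SUC2, the sucrose transporter of companion cells, rose 1.88-fold. PP2-A1, NAC045 and NAKR1, which are among the 17, overlap another annotated gene.

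The 2 phloem genes that fell were the sugar exporters SWEET11 and SWEET12. SWEET11 had 0.0964, 0.732, 0.0341, 0.179 and 0.226 CPM in WT experiment 2, against 1.01 to 6.50 CPM in WT experiment 1, and SWEET12 had 0.0964 to 1.43 CPM in experiment 2 against 2.28 to 8.94 in experiment 1. Both stand at a few counts per library or less in several libraries.

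Of the 25 xylem genes, 23 were tested, of which 11 rose and 1 fell, none by as much as 2-fold, with a median of 0.29. Among all tested genes 34.5% rose and 34.7% fell. MYB63, a lignin regulator, rose by 0.95 on the log2 scale and LAC4, a lignin laccase, by 0.81, while LAC17, another, fell by 0.39. The median was 0.46 with scaling to the reference genes.

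Suberin genes differed less than the endodermal and cambial ones, and libraries overlapped for most. All 21 genes of suberin synthesis and export were tested: 7 rose, 2 fell and 12 were not called, with a median log2 fold change of 0.15, and 16 of the 21 overlapped between the sets. The 7 of 21 that rose are close in share to the 34.5% of all genes.

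ABCG1, an exporter of suberin precursors, had 123, 116, 118, 110.4 and 119 CPM in WT experiment 2, against 55.0 to 64.0 CPM with a median of 56.9 in WT experiment 1, and rose 2.03-fold (log2 1.02, SE 0.05, edgeR adjusted p 7.02e-09). FAR1, a reductase that makes fatty alcohols, rose 1.93-fold, and FACT, a caffeoyl transferase for those alcohols, rose 1.76-fold. CYP86A1, the hydroxylase that makes omega-hydroxy acids for suberin, rose 1.34-fold although the sets overlapped, with 266 to 433 CPM in experiment 2 against 227 to 286 in experiment 1.

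ABCG6, another transporter of the same family, fell 1.65-fold, with 54.5 to 71.2 CPM in WT experiment 2 against 87.8 to 117 in WT experiment 1, and KCS20, a fatty acid elongase, fell 1.27-fold, a call lost in 6 of 28 other settings. GPAT5, the acyltransferase most used as a suberin marker, had 60.1, 53.6, 71.0, 43.7 and 43.3 CPM in experiment 2 and 42.7 to 52.7 CPM in experiment 1 (log2 0.14, SE 0.12, edgeR adjusted p 0.321). KCS1, another elongase, rose by 0.23 on the log2 scale, a call also lost in 6 of 28 other settings. FAR1, FAR4, ABCG1, ABCG2, ASFT and KCS2 overlap another annotated gene.

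The suberin list depended on particular libraries of experiment 2. Its mean log2 CPM was 6.96, 6.83, 6.93, 6.49 and 6.52 in replicates 1 to 5 of WT experiment 2, against 6.46 to 6.75 in WT experiment 1, so replicates 4 and 5 lay within experiment 1. Without replicates 1 and 3 of experiment 2, the libraries lowest in the root hair mean and in CASP1, 4 genes rose and 3 fell and the median was -0.000912. Scaled to the reference genes instead, 12 rose and 1 fell with a median of 0.32.

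The transcription factors of suberin and phellem went both ways. Of 13, all tested, 7 rose and 3 fell, with a median log2 fold change of 0.34, where 34.5% of all tested genes rose and 34.7% fell. MYB84, a regulator of phellem formation, had 33.9, 30.8, 31.9, 26.8 and 30.6 CPM in WT experiment 2 and 9.08 to 12.2 CPM in WT experiment 1, a 2.98-fold rise (log2 1.57, SE 0.08, edgeR adjusted p 8.45e-09). MYB68, its close relative, rose 1.74-fold, MYB107, which activates suberin genes in seed coats, 1.84-fold, and NAC038 1.67-fold.

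MYB39, which promotes suberin in the endodermis, had 0.353, 0.899, 0.171, 0.751 and 0.867 CPM in WT experiment 2, against 4.30 to 6.22 CPM with a median of 5.79 in WT experiment 1. It fell 8.97-fold (log2 -3.17, SE 0.29, edgeR adjusted p 6.98e-07), a size near that of CASP1. NAC046 fell 3.29-fold and MYB92 1.62-fold. With genes of overlapping span left out, MYB9, MYB53 and MYB92 drop out and the median was 0.54. Without replicates 1 and 3 of experiment 2, 5 rose and 3 fell with a median of 0.17.

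MYB67 itself had 13.4, 11.9, 11.4, 8.66 and 6.56 CPM in WT experiment 2 and 5.94 to 7.13 CPM in WT experiment 1, a 1.60-fold rise in overlapping sets (log2 0.68, SE 0.16, edgeR adjusted p 0.00231). The libraries labelled myb67 did not hold less of it: with all 22 libraries scaled together, its median in experiment 2 was 17.2 CPM in the libraries labelled myb67 and 11.6 CPM in WT. In experiment 1 its median was 10.9 CPM in the libraries labelled myb67 and 6.62 CPM in WT.

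Clock genes changed in a way that set morning genes against evening genes, with exceptions in both lists. The lists hold 15 morning genes and 14 of the afternoon and evening, all tested. Of the morning genes, 10 fell and 3 rose in experiment 2, with a median log2 fold change of -0.70. Among the evening genes 8 rose and 3 fell, with a median of 0.44. The shares over all tested genes were 34.7% lower and 34.5% higher. An evening element, AAAATATCT on either strand, is a known binding motif of the morning factors CCA1 and LHY. It was found in the 250 bases before the gene start of 8 of the 14 evening genes (57.1%) and 1 of the 15 morning genes (6.67%). Of all 27443 nuclear protein-coding genes, 648 held it (2.36%). The lists were drawn up as known clock genes, so these shares describe the lists and are no test. The promoters of 3 called evening genes with the element are shown, of which 1 fell and 2 rose, read from the RefSeq TAIR10.1 genome and written 5′ to 3′ on the strand of the gene, with the element in capitals on whichever strand it lies.
GRP8, chr4:18275217-18275466, minus strand: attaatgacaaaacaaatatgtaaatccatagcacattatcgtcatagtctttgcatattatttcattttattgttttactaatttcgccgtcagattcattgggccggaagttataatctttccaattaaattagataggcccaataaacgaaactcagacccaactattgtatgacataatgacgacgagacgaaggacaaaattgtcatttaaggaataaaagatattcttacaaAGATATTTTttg
BOA, chr5:24003638-24003887, plus strand: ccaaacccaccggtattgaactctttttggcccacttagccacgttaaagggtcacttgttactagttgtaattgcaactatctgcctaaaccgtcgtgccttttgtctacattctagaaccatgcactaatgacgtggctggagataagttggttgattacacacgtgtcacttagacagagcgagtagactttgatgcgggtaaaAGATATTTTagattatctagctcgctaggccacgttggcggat
TOC1, chr5:24674713-24674962, plus strand: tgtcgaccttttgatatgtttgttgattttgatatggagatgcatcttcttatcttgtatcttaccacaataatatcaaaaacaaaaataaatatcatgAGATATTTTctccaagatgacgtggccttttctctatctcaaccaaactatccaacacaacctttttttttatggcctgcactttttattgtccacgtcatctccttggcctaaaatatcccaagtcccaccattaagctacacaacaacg
Each holds the element 1 time. GRP8, with the element 12 bases before its start, fell, and BOA and TOC1 rose. Of all 8 evening genes with the element, 4 rose (COR27, BOA, TOC1 and LUX), 2 fell (GRP8 and PRR5) and 2 were not called (FKF1 and GRP7). JMJ30, whose change was larger than that of any of these 3, has no match in this window.

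Among the morning genes, the core pair fell. LHY had 0.490 to 1.89 CPM with a mean of 1.15 in WT experiment 2, against a lowest of 1.91, a median of 5.47 and a highest of 6.90 CPM in WT experiment 1 (log2 -2.23, SE 0.28, edgeR adjusted p 1.12e-05). The sets did not overlap by a small margin, and the level rests on few reads, 13 to 59 counts per library in experiment 2 and 5 to 94 in experiment 1. CCA1 had 0.679 to 1.67 CPM in experiment 2 and 1.91 to 4.59 in experiment 1 (log2 -1.63, SE 0.25).

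PRR9, a repressor that follows CCA1 and LHY in the morning, fell 4.38-fold, averaging 1.92 ± 0.445 CPM in WT experiment 2 (SD, n = 5) and 8.66 ± 1.44 CPM in WT experiment 1 (SD, n = 6). LNK1, a coactivator of the later genes, fell 2.88-fold, with 26.2, 21.6, 9.32, 13.4 and 8.97 CPM in experiment 2 against 40.2 to 59.5 in experiment 1. PRR7 fell 1.43-fold. Other members of the same gene family as CCA1 went both ways: RVE1 rose by 1.43, RVE2 by 1.16 and RVE4 by 0.38 on the log2 scale, while RVE8 fell by 0.70 and RVE7 by 0.49.

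Of the evening genes, JMJ30, a histone demethylase tied to the clock, had 74.4, 75.8, 109, 91.3 and 102 CPM in WT experiment 2, against a lowest of 11.9, a median of 13.7 and a highest of 15.6 CPM in WT experiment 1. The rise was 6.67-fold (log2 2.74, SE 0.11, edgeR adjusted p 2.02e-09), and the sets stood far apart. COR27, a repressor of evening genes, rose 3.93-fold, with 21.4 to 35.2 CPM in experiment 2 against 5.56 to 9.63 in experiment 1. BOA, a close relative of LUX, rose 3.21-fold.

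TOC1, the central evening repressor, had 214, 212, 227, 222 and 217 CPM in WT experiment 2 and 121 to 145 CPM, with a median of 132, in WT experiment 1, a 1.64-fold rise (log2 0.72, SE 0.05). LUX, a member of the evening complex, rose 1.53-fold. GI, which also peaks before dusk, fell instead, with 96.9 to 152 CPM in experiment 2 against 225 to 278 in experiment 1, a 1.93-fold fall, and PRR5 fell 1.29-fold.

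GRP8, an RNA-binding protein under clock control, fell 5.39-fold, with 24.9 to 35.8 CPM in WT experiment 2 against 108 to 374 in WT experiment 1, while its relative GRP7 had 317 to 376 CPM in experiment 2 and 197 to 618 in experiment 1 (edgeR adjusted p 0.764). RVE1, LNK1, LNK2, LNK3, LNK4, ELF3, LUX, BOA and FKF1 overlap another annotated gene, and the sources used here do not give how strand was counted.

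**Figure D4:**
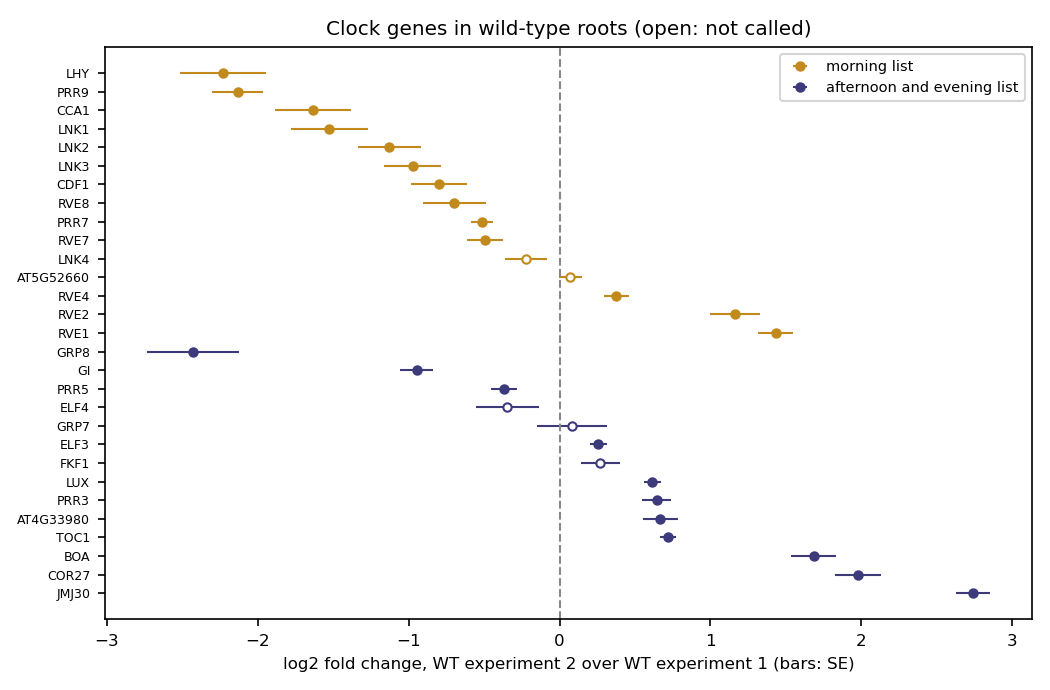
Log2 fold change, WT experiment 2 over WT experiment 1, of the morning and evening clock genes, with bars of 1 SE and open points for genes that were not called. LHY, PRR9, CCA1 and LNK1 lie lowest among the morning genes and JMJ30, COR27 and BOA highest among the evening genes, while RVE1 and RVE2 rose and GRP8 and GI fell.

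Genes of photosynthesis were higher in WT experiment 2, but in the list mean 2 libraries of experiment 1 stood near experiment 2. Of 29, all tested, 22 rose and 1 fell, with a median log2 fold change of 1.54, where 34.5% of all tested genes rose. In 18, all libraries of experiment 2 lay above all of experiment 1, replicates 3 and 6 included, against 24.8% of all genes. In the other 11 the sets overlapped. Averaged over its genes, log2 CPM was 6.60, 6.29, 6.35, 5.95 and 5.91 in WT experiment 2, against 3.96, 3.80, 5.89, 3.99, 3.96 and 6.16 in replicates 1 to 6 of WT experiment 1, so that replicates 3 and 6 were close to experiment 2. Without these 2, all 29 rose and the median was 2.28. PSBO1, a protein of the oxygen-evolving complex, had 239 to 340.3 CPM in experiment 2 and 71.2 to 143 in experiment 1.

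LHCB1.1, an antenna protein, was the gene that fell (log2 -3.03, SE 1.17, edgeR adjusted p 0.0336), with at most 10.2 CPM in WT experiment 2 against 0.706 to 212 in WT experiment 1, and its sign turned to 2.21 without replicates 3 and 6. Its call was also lost without replicate 3 or 6 of experiment 1, or 2, 3, 4 or 5 of experiment 2, left out singly. The LHCB1, LHCB2 and RBCS genes are near-identical copies whose reads may have been split between them.

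Genes of the root tip, a region that the labelled segment does not contain, were low in both sets and lower in experiment 2. Of 8, 7 were tested and 5 fell, against 34.7% of all tested genes. The mean log2 CPM ran from -0.51 to 0.97 in WT experiment 2 and from 1.38 to 1.92 in WT experiment 1. Of 14 lateral root genes, 13 were tested, with 6 lower and 2 higher, against 34.7% lower and 34.5% higher of all tested genes. LBD29 and LBD16, which start lateral roots, fell by 2.68 and 1.75 on the log2 scale, while PLT7 and PLT5, AP2-type factors of lateral root outgrowth, rose by 2.46 and 1.12. The median of this list was -0.37, and 0.00276 where a mean of at least 5 CPM was required, so no direction is given for it.

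Over all genes, the largest changes were far larger than the list medians. Among called nuclear protein-coding genes averaging 5 CPM or more, with no overlap between the sets and no overlap with another gene, AT1G52070, a mannose-binding lectin, fell most. It had 0.137 to 1.47 CPM in WT experiment 2, against 41.3 to 70.3 CPM in WT experiment 1, a 94.9-fold fall. AT1G52060, a lectin gene of the same family, fell 69.8-fold and AT5G54370 50.2-fold. MRN1, the marneral synthase, fell 43.1-fold, BGLU35 38.5-fold and BGLU34 37.6-fold, AT1G52050 36.5-fold, AGP30 34.1-fold, XTH12 30.2-fold and CYP82C4, a hydroxylase of the iron deficiency response, 29.5-fold. CYP82C4 had 0.642 to 2.22 CPM in replicates 1 to 4 of experiment 2 and 15.5 CPM in replicate 5, and its log2 fold change was -4.88, and -6.66 without replicate 5. Without replicate 4 of experiment 2, the log2 fold change of BGLU35 was -5.90, against -5.27 with it, and that of BGLU34 was -5.85, against -5.23. The lectins AT1G52050 to AT1G52070 and the pair BGLU34 and BGLU35 are close copies, so that their values are uncertain one by one. The same limit holds for XTH12, a close paralog of XTH13.

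Of the rises, AT2G08986 came first but was at 0 in all libraries of WT experiment 1, so no fold is given for it. GRP-3, a glycine-rich protein, came next with 11.8 to 17.3 CPM in WT experiment 2 against 0.554 to 1.77 in WT experiment 1, a 17.5-fold rise. DIN11, a dark-inducible oxygenase, rose 16.9-fold, MLP28 11.7-fold, CYP706A1 11.5-fold, PRXCA 9.17-fold, CYP706A2 9.04-fold, AT2G05540 8.93-fold and AT5G38980 8.26-fold. BGAL1, a beta-galactosidase, had 2071 to 3282 CPM in experiment 2 against 276 to 323 in experiment 1, an 8.22-fold rise. CYP706A1 and CYP706A2 are close copies.

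AT2G08986 held 260 to 698 counts in each library of WT experiment 2 and 0 in all 6 of WT experiment 1, and AT1G40104 and AT5G32690 stood likewise at 95 to 231 and 102 to 304 counts against 0. No gene with a mean over 50 counts in experiment 1 was at 0 throughout experiment 2. No fold is given for these 3 genes. Transcript length and GC content showed no trend, with quartile medians of the log2 fold change from -0.01 to 0.04 over 21018 of the 21100 genes.

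The same contrast was taken in the libraries labelled myb67, which the WT comparison does not use but which share its experiments, depths and counting methods. There, 16028 of 21683 genes (73.9%) were called, 8388 higher (38.7%) and 7640 lower (35.2%). Of the 7284 genes higher in WT experiment 2, 6805 were also higher in the libraries labelled myb67, which is 93.4% of the WT list and 81.1% of the other. Of the 7325 lower genes, 6796 were also lower, 92.8% of the WT list and 89% of the other.

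The lists named here stood on the same side of 0 in both genotypes. The root hair median was -3.27 in WT and -3.83 in the libraries labelled myb67, and the endodermis median was -1.23 in WT and -0.93 in the libraries labelled myb67. For cambium it was 1.05 in WT and 1.22 in the libraries labelled myb67, for phloem 0.87 in WT and 1.06 in the libraries labelled myb67, and for suberin 0.15 in WT and 0.34 in the libraries labelled myb67. Morning clock genes had a median of -0.70 in WT and -0.56 in the libraries labelled myb67, and evening genes 0.44 in WT and 0.40 in the libraries labelled myb67. The photosynthesis median was 1.54 in WT and 2.7 in the libraries labelled myb67, of which the 6 in experiment 1 all lay at a mean log2 CPM of 3.89 or less.

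The difference between the experiment effect in WT and that in the libraries labelled myb67 was called for 15 of 21683 genes (0.0692%), 4 higher (0.0184%) and 11 lower (0.0507%) in WT. A difference of at least 2-fold was called as higher for 4 genes (0.0184%) and as lower for 5 (0.0231%). The 15 come from a fit without a replicate block. Within experiment 2, libraries of the same replicate number deviated alike in both genotypes. With the replicate number within experiment as a block the count was 516. CSLB01, a cellulose synthase-like protein, fell by 1.66 on the log2 scale in WT and had a log2 fold change of 0.06 in the libraries labelled myb67 (edgeR adjusted p of the difference 0.00117). AT5G44925 had a log2 fold change of 2.85 in WT and -0.77 in the libraries labelled myb67, at 0.679 to 1.54 CPM in WT experiment 2 and 0 to 0.224 in WT experiment 1. The 1 list member among the 15 was CYP707A1, which breaks down abscisic acid, with a difference of -0.74 between WT and the libraries labelled myb67 (edgeR adjusted p 0.0157). The same fit recovered 78% of 100 simulated 2-fold differences over 21382 genes. The simulated libraries were independent, without the likeness of same-numbered libraries, and few genes were changed. The 78% is therefore no measure of how many differences were found in the data.

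**Figure D5:**
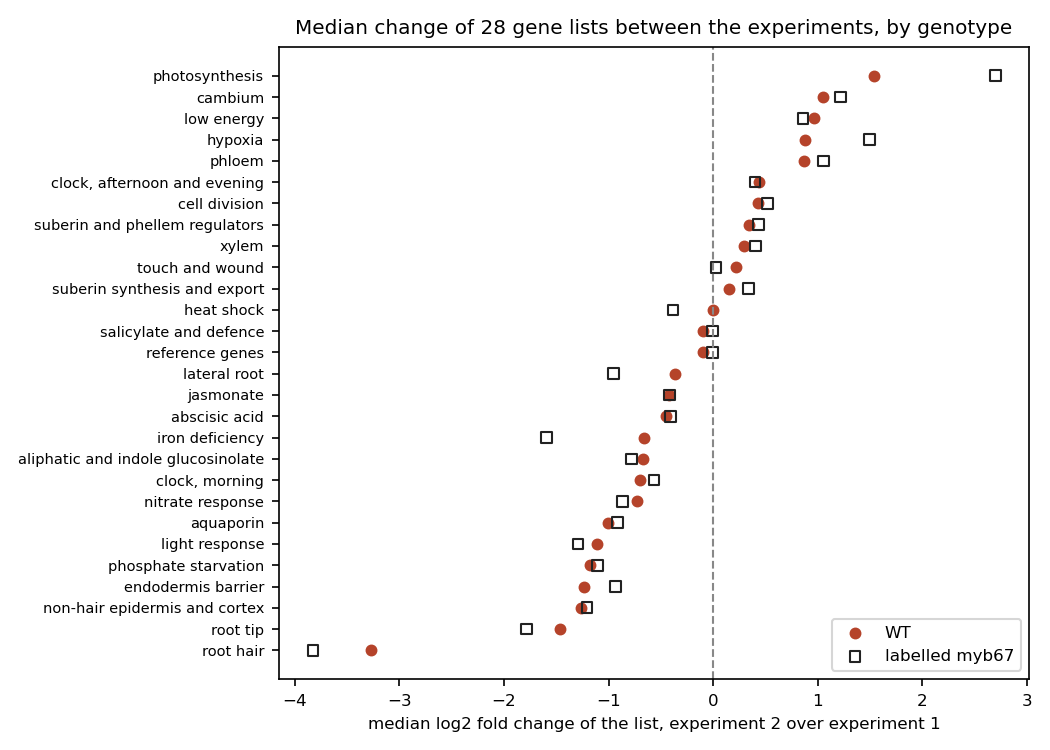
Median log2 fold change, experiment 2 over experiment 1, of each gene list in WT and in the libraries labelled myb67. The medians of root hair (-3.27 in WT, -3.83 in the libraries labelled myb67) and cambium (1.05 in WT, 1.22 in the libraries labelled myb67) stand on the same side in both genotypes.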

How the data were processed

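Counts per gene were deposited for 22 bulk mRNA libraries of Arabidopsis roots as 1 table of 33323 genes, of which the 11 WT libraries are compared and the 11 labelled myb67 serve as a second contrast. For experiment 1 the authors deposited expected counts in steps of 0.5 (28.2% to 34.6% of values per library not whole), which were rounded before fitting. For experiment 2 the authors deposited raw counts, all whole. Neither set is normalized, and a second deposited table, which compares genotypes, was not used here. Build TAIR10 and the tools STAR 2.7.10a, Trimmomatic 0.39, FastQC, HOMER and DESeq2 1.40.1 are named per the submitters' processing notes, which give neither their roles nor their order. Strand setting, treatment of multi-mapping reads and the reason for the steps of 0.5 are not given in the sources used here.

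Genes were kept by filterByExpr of edgeR 4.0.16 (R 4.3.3), libraries were scaled by TMM, and WT experiment 2 was tested against WT experiment 1 with the quasi-likelihood F test. Calls are genes whose p, adjusted over all tested genes by the method of Benjamini and Hochberg, was under 0.05. A 2-group fit of 11 libraries gave the WT contrast (21100 genes). A fit of 4 group means gave the contrast in the libraries labelled myb67 and its difference from WT (21683 genes). Each SE is approximate, the size of the log2 fold change divided by the root of F. Log2 CPM used a prior count of 2. The fit was tested on simulated data over 20948 genes, with 5 false calls. Of 100 genes changed 1.5-fold, 75% were recovered, with 92% at 2-fold and 98% at 4-fold. Simulated libraries were independent, dispersion followed a common trend and few genes were changed, so recovery in the data was not measured.

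The members and the 28 gene lists (566 members, 533 tested) were chosen with earlier results of these data known, so lists are described by counts and medians and carry no test. Of the members, 49 have no name in the reference and are given by locus. Named genes are the 10 largest rises and falls among called nuclear protein-coding genes averaging 5 CPM or more, with no overlap between sets and no overlapping gene, members of the tissue and clock lists, up to 5 called members per direction of the other lists, the 5 smallest p for the genotype difference and the most abundant noncoding genes. Names, gene spans and promoters come from RefSeq TAIR10.1, where 488 of the 33323 genes have no entry.

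Replicate numbers did not pair the WT sets across experiments (correlation of deviations from group means, across genes, -0.0994 to 0.108). Same-numbered libraries of WT and those labelled myb67 deviated alike in experiment 2 (0.285 to 0.671) and not in experiment 1 (-0.158 to 0.0430). The correlation was not computed for libraries of unlike number, so no baseline is given for these values. Alternatives were RLE, upper quartile, total count and reference-gene scaling, other filters, DESeq2 1.42.0, limma-voom (limma 3.58.1), a test against 1.5-fold, thinning, unrounded values, nuclear protein-coding genes only, genes of overlapping span left out, a replicate block, the 22-library fit and each library left out in turn. Leaving out replicates 3 and 6 of WT experiment 1 was another, and leaving out replicates 1 and 3 of WT experiment 2 was added after seeing the data. Some members and promoters are not reported here. Figures were drawn with matplotlib 3.10.9 in Python 3.11.15.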

Additional observations from a re-analysis of the deposited data

Results flagged for a closer look

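In 150 sets of 5 or 6 libraries screened (list means and named genes), 12 held 1 library far from the others, where chance gives about 1 in 20. Of the 12, 8 were WT replicate 1 of experiment 1, the library of fewest counts and most ribosomal RNA. Lists and genes were chosen after their values had been seen.

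That library had a mean log2 CPM of 6.75 for the suberin list (others of experiment 1, 6.46 to 6.56), 2.93 for morning clock genes (3.23 to 3.38), 3.77 for phosphate starvation genes (3.62 to 3.67) and 7.45 for nitrate response genes (7.28 to 7.34). It also held 259 CPM of ESB1 (others 22.7 to 75.1), 81.6 CPM of NAC046 (41.6 to 52.8), 70.2 CPM of SEOB (59.8 to 63.4) and 374 CPM of GRP8 (108 to 174). Without it, the suberin median was 0.16 and the morning median -0.75. The part that its ribosomal share had in these values was not tested.

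Replicate 6 of WT experiment 1 had a mean log2 CPM of 4.17 for light response genes, against 3.81 to 3.89 in the others. In WT experiment 2, replicate 2 had 0.732 CPM of SWEET11 (others 0.0341 to 0.226), replicate 1 had 1.67 CPM of CCA1 (0.679 to 0.966) and replicate 5 had 27.8 CPM of IRT1, the root iron importer (1.45 to 6.90).

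The effect of experiment 2 over experiment 1 differed between WT and the libraries labelled myb67, by the edgeR test of that difference, in AT5G44925 (log2 3.63, adjusted p 0.00117), CSLB01 (-1.70, 0.00117), MLP-300B (-1.44, 0.00417), AT5G44050 (-0.98, 0.00597), AT4G14060 (-1.14, 0.00657) and CYP707A1 (-0.74, 0.0157). Each value is the log2 fold change in WT minus that in the libraries labelled myb67, from the fit without a replicate block.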

How the results depend on the processing

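Each result was recomputed with 1 choice changed at a time. Tested against 1.5-fold, 5716 genes were called, 2744 higher and 2972 lower. With no filter, 12028 were higher, 7109 of them by at least 2-fold. With a mean of at least 5 CPM, 1328 rose and 1477 fell by at least 2-fold, the endodermis median was -0.66 and the morning median -0.48. Scaling to the reference genes moved the median of all genes by 0.16 and raised the share of calls that were higher to 63.3%, against 49.9%, and total count scaling moved it by 0.11 and gave 60.0%. Scaled to the reference genes, medians were 1.21 for cambium, 0.51 for suberin regulators, -0.53 for morning, 0.60 for evening, 1.03 for phloem and 0.46 for xylem, and with total counts 0.47 for suberin regulators. Thinned to equal depth, the endodermis median was -0.96. With overlapping spans left out it was -0.38, that of cambium 1.19 and that of suberin regulators 0.54. Without replicates 1 and 3 of WT experiment 2, medians were -0.000912 for suberin, which turned its sign, 0.17 for suberin regulators and 0.76 for phloem. The causes were not tested.

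Leaving out 1 library at a time gave 13885 to 14887 called genes, 6908 to 7671 higher, 6977 to 7324 lower, 2011 to 2285 higher and 2295 to 2490 lower by at least 2-fold. Medians ran from -3.42 to -3.00 for root hair, -1.28 to -1.16 for endodermis, 0.99 to 1.09 for cambium, 0.10 to 0.23 for suberin, 0.28 to 0.43 for suberin regulators, -0.75 to -0.56 for morning, 0.42 to 0.51 for evening, 0.80 to 0.90 for phloem, 0.23 to 0.34 for xylem and 1.41 to 1.76 for photosynthesis. In the libraries labelled myb67, 15557 to 16161 genes were called, and 10 to 23 for the difference.

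With the replicate number within experiment as a block, the difference was called for 516 genes, and the same block could not be fitted to the contrast in the libraries labelled myb67. LHCB1.1 turned its sign with the block of replicates 1 to 5 across experiments (0.40) and without replicates 3 and 6 of WT experiment 1 (2.21). Of 9075 values for 330 named genes, 8844 kept direction and call, 229 lost the call and 2 turned sign.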

Other observations

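Most genes of the phosphate starvation and nitrate response lists were lower in WT experiment 2. Among all tested genes, 34.7% were lower and 34.5% higher. Of 20 phosphate starvation genes tested, 16 fell and 2 rose (median log2 fold change -1.18), led by RNS1, a secreted ribonuclease, with 0.225 to 0.899 CPM in experiment 2 against 6.83 to 11.8 in experiment 1, and by PHT1;4 and PHT1;1, phosphate transporters, which fell by 3.02 and 2.31 on the log2 scale. Of 21 nitrate response genes tested, 17 fell and 2 rose (median -0.73), and NRT1.1, the nitrate transporter and sensor, had 125 to 262 CPM in experiment 2 against 1383 to 1696 in experiment 1, while the nitrate transporter NRT1.8 rose by 2.17 on the log2 scale. Of 20 iron deficiency genes tested, 11 fell and 4 rose (median -0.66, and -1.32 without replicate 5 of experiment 2). FRO2, the root iron reductase, had 1.06, 2.43, 1.33, 4.04 and 25.0 CPM in experiment 2 against 61.8 to 169.7 in experiment 1. AT1G47395 and NAS4, of the same list, rose by 2.60 and 1.78 on the log2 scale. AT1G47395 had at most 10 counts in any library of WT experiment 1. Of 20 aquaporin genes, 12 fell and 5 rose (median -1.01), TIP2;2 by 3.47 on the log2 scale, while PIP2;5 rose by 1.55. Of 25 glucosinolate genes tested, 16 fell and 4 rose (median -0.67).

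Genes of low energy and of hypoxia were mostly higher in WT experiment 2, against 34.5% of all tested genes higher and 34.7% lower. Of 16 low energy genes, 12 rose and 1 fell (median 0.97), with DIN2, a dark-inducible glucosidase, at 111 to 208 CPM in experiment 2 against 23.3 to 39.8 in experiment 1. Of 13 hypoxia genes tested, 10 rose and 2 fell (median 0.88): SUS1, sucrose synthase, rose by 1.79 on the log2 scale, while PDC1, pyruvate decarboxylase, fell by 1.01. Of 29 cell division genes, 19 rose and 3 fell (median 0.43), with the mitotic cyclin CYCA1;1 higher by 1.08 and the replication factor PCNA1 lower by 0.57. Of 15 light response genes, 11 fell and 1 rose (median -1.11), with CHS, chalcone synthase, at 27.5 to 57.0 CPM in experiment 2 against 204 to 295 in experiment 1.

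Hormone and stress lists went both ways. Of 25 abscisic acid genes tested, 12 fell and 8 rose (median -0.45), NCED3, a synthesis enzyme, falling by 2.73 and CYP707A3, a breakdown enzyme, rising by 1.90. Of 22 jasmonate genes tested, 12 fell and 5 rose (median -0.42), and of 25 touch and wound genes tested, 10 rose and 5 fell (median 0.21). Against 34.5% of all tested genes higher and 34.7% lower, the 10 of 25 touch and wound genes that rose are close to the background share. Salicylate genes (14 tested, 5 higher, 6 lower), heat shock genes (16 tested, 7 higher, 3 lower) and reference genes (13 tested, 2 higher, 6 lower) had medians of -0.10, 0.00 and -0.10, and no direction is given, since the first and last change sign with scaling. Among noncoding genes, the ribosomal RNA gene AT3G41768 ran from 6369 to 16614 CPM in experiment 2 and 219 to 391681 in experiment 1 (edgeR adjusted p 0.185), and the noncoding RNA AT1G15405 rose by 0.88.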
